A study of Caenorhabditis elegans with 30 samples.

Results

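The regions described here were the narrow H4K16ac peaks that XX and XO hermaphrodites of Caenorhabditis elegans had in common on the autosomes. They were selected on the deposited peak positions, as peaks of the XX list on any chromosome other than X that were under 2000 bp wide and overlapped a peak of the XO list by 1 bp or more. This rule selected 3249 regions of the 8734 XX peaks, or of the 7803 XX peaks on autosomes. The XO list held 15186 peaks, of which 11809 were autosomal.

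The XO animals carried the mutations sdc-2(y74) on X and her-1(e1520) on V, and the XX animals were the wild-type N2 Bristol strain. Both were hermaphrodites at the L3 larval stage, grown on plates for 24 h after hatching. Chromatin from whole worms was precipitated with an antibody against histone H4 acetylated at lysine 16 in 3 XO and 3 XX libraries, each set with 3 input libraries. RNA came from 5 libraries of XO animals labelled mys-1(RNAi), 5 of XO animals fed vector RNAi, 4 of dpy-21(e428) XX animals and 4 of wild-type XX animals. The XO animals of the RNA libraries were fed RNAi bacteria, while the XX strains were kept on OP50, so that karyotype, strain and food cannot be told apart in the XO against XX comparison. Each peak list was made by the authors from all replicates of a strain together and the deposited RNA values were group means. The variation among replicates is thus not contained in the values, and no difference was tested. Sequencing depth is not part of the peak lists or of the RNA table. The intervals given for shares are 95% Wilson intervals, and they cover counting error only, since neighbouring peaks are not replicates of a condition.

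Acetylation of H4 lysine 16 weakens the contact between neighbouring nucleosomes and is known as a mark of open chromatin. In flies the acetyltransferase MOF puts it on the male X, while in worms MYS-1 belongs to the Tip60 family of acetyltransferases. In worms the X chromosomes of XX hermaphrodites are bound by the dosage compensation complex, of which DPY-21 is a subunit. her-1 is the switch gene of the male fate and sdc-2 recruits the dosage compensation complex to X. Many worm transcripts are trans-spliced, so that the annotated start of a gene is often the splice site and lies downstream of the site where transcription begins.

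The group means carried the marks of the strains. Mean RNA of her-1 was 428 RPKM in the XO group labelled mys-1(RNAi), 434 RPKM in XO vector animals, 9.66 RPKM in dpy-21 XX animals and 1.70 RPKM in wild-type XX animals. The gene sdc-2 gave 0.0712, 0.0509, 4.96 and 4.03 RPKM in the same order of groups. mys-1 itself stood at 51.7 RPKM in the group labelled mys-1(RNAi), against 15.7 RPKM in XO vector animals, so the group is named here by its label. Whether reads from the feeding construct add to this value was not tested, and an RNA value does not measure the protein. On western blots of L3 worms the study could no longer detect MYS-1 protein after this RNAi, and protein is not analysed here.

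The most closely matched outlines are shown first as sequence, because they mark where XX and XO animals gave nearly the same peak. For each of 4 autosomes the region with the highest common share was taken, which is the number of bases in both peaks as a percentage of the bases in either. The sequences are 300 bp around the centre, read from the WBcel235 assembly, and capitals would mark annotated coding bases. No window held any, and all letters are in lower case.
Centre of the region in F58G1.7 (chrII:12945921-12946220, plus strand): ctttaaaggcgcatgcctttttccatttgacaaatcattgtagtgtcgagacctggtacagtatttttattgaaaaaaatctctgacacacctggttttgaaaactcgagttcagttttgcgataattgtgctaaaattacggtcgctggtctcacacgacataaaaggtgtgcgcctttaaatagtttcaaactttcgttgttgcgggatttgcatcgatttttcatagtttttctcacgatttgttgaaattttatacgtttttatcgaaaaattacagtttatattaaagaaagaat
Centre of the region by Y56A3A.41 (chrIII:11893073-11893372, plus strand): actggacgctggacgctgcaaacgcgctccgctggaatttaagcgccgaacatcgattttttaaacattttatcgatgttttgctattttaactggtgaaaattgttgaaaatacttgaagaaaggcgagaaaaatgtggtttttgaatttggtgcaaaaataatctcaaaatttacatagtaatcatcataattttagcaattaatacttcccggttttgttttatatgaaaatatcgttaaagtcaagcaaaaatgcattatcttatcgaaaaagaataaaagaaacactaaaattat
Centre of the region in zipt-15 (chrIV:816973-817272, plus strand): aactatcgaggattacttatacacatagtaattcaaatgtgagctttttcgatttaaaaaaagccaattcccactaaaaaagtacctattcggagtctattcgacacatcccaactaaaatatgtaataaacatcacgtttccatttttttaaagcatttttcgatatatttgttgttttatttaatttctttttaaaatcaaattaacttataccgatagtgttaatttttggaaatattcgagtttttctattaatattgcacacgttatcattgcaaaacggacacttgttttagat
Centre of the region outside coding genes (chrV:8893877-8894176, plus strand): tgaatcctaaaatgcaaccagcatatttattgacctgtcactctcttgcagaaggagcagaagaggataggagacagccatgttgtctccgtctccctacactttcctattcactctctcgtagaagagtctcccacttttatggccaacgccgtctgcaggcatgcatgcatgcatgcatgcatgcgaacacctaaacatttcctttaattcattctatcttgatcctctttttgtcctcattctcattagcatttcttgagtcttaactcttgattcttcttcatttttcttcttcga
The first region measured 1759 bp in XO and 1772 bp in XX animals, with a common share of 99.3%, and its centre lay in an intron of F58G1.7. The region with the second sequence was 1369 bp wide in XO and 1373 bp in XX animals, shared 99.6%, and held the start of Y56A3A.41. The window in an intron of zipt-15, a zinc transporter gene, came from a region of 617 bp in XO and 621 bp in XX animals. The last region was 2005 bp wide in XO and 1994 bp in XX animals, and its window carries a run of repeated atgc letters. Base composition of these windows spread widely: G and C made up 34%, 30.7%, 27% and 42% of the letters.

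The second set shows the bases directly upstream of the most expressed gene start on each of the same autosomes, since these are the narrow shared peaks with the most RNA beside them. Each sequence runs along the gene's strand, ends at the base before the annotated start and stays inside the peak and outside annotated untranslated regions. Capitals mark the letters of a TATA box (TATAAA) or a T-block (TTTTTTTT), on either strand.
pqn-32 (chrII:13107846-13108018, plus strand): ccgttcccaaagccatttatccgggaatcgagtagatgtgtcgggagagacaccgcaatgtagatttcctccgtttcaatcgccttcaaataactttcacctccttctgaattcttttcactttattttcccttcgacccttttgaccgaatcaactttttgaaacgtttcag
rpl-37 (chrIII:3528342-3528641, plus strand): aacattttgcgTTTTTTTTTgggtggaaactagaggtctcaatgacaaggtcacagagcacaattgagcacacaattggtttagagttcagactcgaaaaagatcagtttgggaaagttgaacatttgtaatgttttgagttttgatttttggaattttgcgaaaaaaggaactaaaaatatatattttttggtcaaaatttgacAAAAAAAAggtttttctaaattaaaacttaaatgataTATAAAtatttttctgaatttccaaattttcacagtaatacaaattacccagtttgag
col-107 (chrIV:1548421-1548720, plus strand): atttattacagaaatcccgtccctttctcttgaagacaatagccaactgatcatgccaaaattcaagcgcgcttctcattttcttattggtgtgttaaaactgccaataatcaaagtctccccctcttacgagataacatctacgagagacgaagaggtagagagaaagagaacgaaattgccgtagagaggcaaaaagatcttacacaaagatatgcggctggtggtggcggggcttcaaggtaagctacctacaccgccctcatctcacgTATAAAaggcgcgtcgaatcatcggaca
lec-10 (chrV:6489121-6489338, minus strand): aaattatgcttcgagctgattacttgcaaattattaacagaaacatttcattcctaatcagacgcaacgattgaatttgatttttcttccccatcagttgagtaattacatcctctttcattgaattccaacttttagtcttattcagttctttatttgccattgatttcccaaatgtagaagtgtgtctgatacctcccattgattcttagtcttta
The upstream sequence of col-107, a cuticle collagen gene, held a TATA box close to the start, and that of rpl-37, a ribosomal protein gene, held a TATA box and T-blocks on both strands. Those of pqn-32, which encodes a glutamine- and asparagine-rich protein, and lec-10, a galectin gene, held none of the letters searched. The pqn-32 sequence ends in the letters tttcag, the form of a worm splice acceptor. Such an ending preceded 12.7% of the 487 coding starts in narrow shared peaks (interval 10.1 to 16%), 7.91% of 139 starts in narrow peaks found in XX only (4.48 to 13.6%), 20.1% of 6806 starts in wide shared peaks and 6.38% of 8674 autosomal starts in no peak.

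The narrow shared peaks had a median width of 728 bp, with quartiles of 426 and 1218 bp. They were spread over the whole allowed range: 1055 were under 500 bp, 1056 of 500 to under 1000 bp, 673 of 1000 to under 1500 bp and 465 wider. The narrowest measured 147 bp, a width reached by 14 of them and the smallest in either list. At the upper limit, chrV:1386957-1388952 with 1996 bp was included and chrIII:13534484-13536483 with 2000 bp was not. At the overlap limit, a 521 bp peak at chrI:10496683-10497203 shared 1 bp with an XO peak, while a 390 bp peak at chrI:3494202-3494591 abutted one without sharing a base and was left out. Together the narrow shared peaks covered 2.74 Mb, or 3.32% of autosomal sequence, against 25.3 Mb and 30.6% for the 3177 wide shared peaks.

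Nearly all narrow shared peaks, 3108, met a single XO peak, and the other 141 met a pair. The widest XO partner was under 2000 bp for 2032 of them (62.5%, interval 60.9 to 64.2%), between 2000 and 10000 bp for 1000 (30.8%) and 10000 bp or more for 217 (6.68%). Partner widths had a median of 1400 bp and ranged up to 48433 bp, and 71.6% of partners were wider than the XX peak. The rule limits the width of the XX peak and not that of its partner, so this share is not evidence of wider peaks in XO animals. With the lists exchanged, a count added after seeing the data, 4025 autosomal XO peaks under 2000 bp met an XX peak, and 74.9% of their XX partners were the wider. XO peaks covered a median of 87.9% of each narrow shared peak, and 1220 of them lay wholly inside XO peaks. The outlines nevertheless matched loosely, with a median common share of 26.7%. A common share of 50% or more was reached by 855 regions, and 742 stayed under 10%. The centres of the XX peak and its main partner lay a median of 432 bp apart. Where the partner was itself narrow, the median common share was 38.5% and the offset 252 bp, and with partners of 10000 bp or more these were 4.12% and 5873 bp.

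Some XO partners met more than 1 XX peak. For 1166 narrow shared peaks (35.9%) the XO partner also met another XX peak, and for 644 of these it met a wide one. The median partner then measured 4129 bp and the median common share was 10.6%. The remaining 2083 had a partner that met no other XX peak, and 2014 of them stood in a relation of 1 XX to 1 XO peak. In these 2014 the XO peak measured 845 bp and the XX peak 725 bp at the median, the XO peak was the wider in 57.7%, and it was also under 2000 bp in 89.1%. The same limit on XX width bears on all these values, those of the joined peaks included. With the lists exchanged, XX partners of narrow XO peaks had a median width of 1940 bp. How often those XX partners met more than 1 XO peak was not counted, so the joining is not evidence of a difference between strains. The XO peak that joined the most narrow shared peaks was an 11857 bp peak at chrII:13815158-13827014, over the end of ZK131.11 and 11 histone genes beside it. It held 5 narrow shared peaks of 147, 618, 1004, 632 and 876 bp. Histone genes are near-identical copies and reads could be placed at up to 4 locations, so peaks there are uncertain. Both lists were called with the same program and settings, but how far the number of reads per strain bears on the width and joining of peaks was not tested.

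Narrow shared peaks were rarely isolated. The gap to the nearest XX peak had a median of 907 bp with quartiles of 698 and 1618 bp, and 1835 of them (56.5%) had a neighbour closer than 1000 bp. For 42.4% of all narrow shared peaks the nearest neighbour was 2000 bp or wider. Of the 7803 autosomal XX peaks 3177 were wide shared peaks and 13 were wide without an XO partner. The share of wide neighbours was thus close to the share of wide peaks in the list. No pair of peaks in either list lay closer than 589 bp, so this value is the lower bound of every gap. At the other end 92 narrow shared peaks had no neighbour within 10000 bp, and the largest gap was 200099 bp. For comparison the median gap was 864 bp for wide shared peaks and 1171 bp for the 1364 narrow autosomal XX peaks without an XO partner.

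Density differed between autosomes. Chromosome III carried 751 narrow shared peaks or 54.5 per Mb and chromosome I 815 or 54.1 per Mb. Chromosome II followed with 39.1, chromosome IV with 32.8 and chromosome V with 24.5 per Mb. Wide shared peaks ranked almost alike, with 47.2 per Mb on III, 52.5 on I, 38.0 on II, 34.8 on IV and 26.0 on V, so that narrow shared peaks made up between 37.0% of all XX peaks on V and 45.7% on III. Narrow peaks without XO partner were more even, between 14.2 and 19.4 per Mb. Within chromosomes V and II the middle part, when each chromosome was divided into 3 equal parts, was dense against at least the left arm, with 35.3 per Mb in the middle of V against 21.2 and 16.9 per Mb in its left and right parts. On chromosome I the left part was the densest, at 67.7 per Mb.

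**Figure D1:**
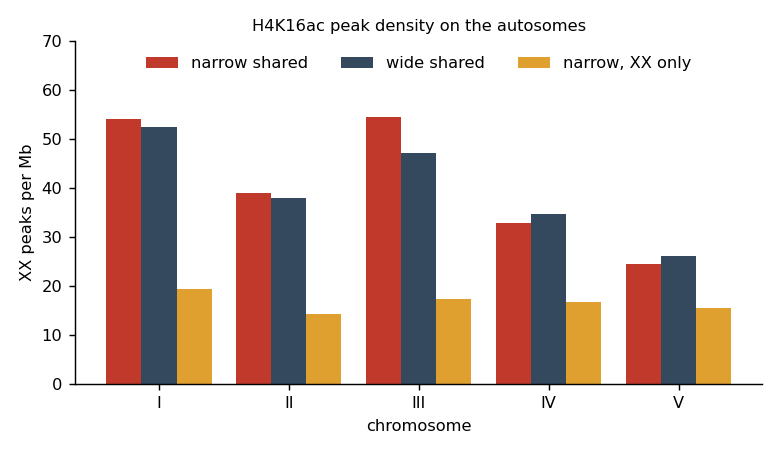
Bars give XX peaks per Mb of chromosome for narrow shared, wide shared and narrow peaks found in XX only, on each autosome. Narrow shared peaks are densest on III (54.5 per Mb) and I (54.1 per Mb) and sparsest on V (24.5 per Mb), and the wide shared peaks show nearly the same ranking.

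The starts of protein-coding genes were mostly elsewhere. Of the 3249 narrow shared peaks, 450 held such a start (13.9%, interval 12.7 to 15.1%), with 487 starts in all. Among wide shared peaks 74.5% held a start, and among narrow XX peaks without XO partner 9.97% did (interval 8.49 to 11.7%). Width enters these shares directly, so the starts were also counted per Mb of peak. Narrow shared peaks then held 177 starts per Mb (exact Poisson interval 162 to 194), against 269 per Mb in wide shared peaks, 188 per Mb in narrow peaks without XO partner (158 to 222) and 209 per Mb over all autosomal sequence. The value was below that of the whole chromosome on I to IV, for example 145 against 191 per Mb on I, but above it on V, where it was 273 against 239 per Mb. On X, the 554 narrow shared peaks held 278 starts per Mb (232 to 331) while the whole of X had 154 per Mb, so that the relation to the surrounding chromosome ran the other way than over the autosomes as a whole.

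Among narrow shared peaks the share that held a start rose with width, being 4.45% under 500 bp, 11.7% from 500 to under 1000 bp, 19.8% from 1000 to under 1500 bp and 31.4% above. Per Mb this was 146, 166, 174 and 205 starts. By the width of the XO partner the share was 14.4% for partners under 2000 bp, 12.6% for those of 2000 to under 10000 bp and 14.7% for wider ones, and the intervals of these shares overlap. The median distance of a peak centre to the nearest coding start was 2010 bp for narrow shared peaks and 1191 bp for wide shared peaks.

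**Figure D2:**
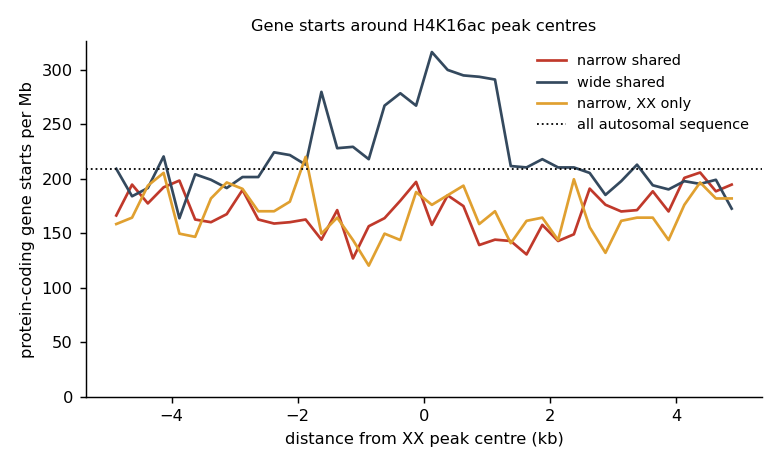
Protein-coding gene starts per Mb (vertical axis) in 250 bp bins up to 5000 bp either side of XX peak centres (kb, horizontal axis, in genome orientation), for the 3 autosomal classes; the dotted line is all autosomal sequence, 209 per Mb. The curve of narrow shared peaks stays under the dotted line at all distances plotted, close to that of narrow peaks found in XX only, while the curve of wide shared peaks rises above it around the centre.

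Against all annotated genes, coding and non-coding, 1008 narrow shared peaks had their centre within 1000 bp upstream of a transcript start (31%, interval 29.5 to 32.6%), 749 in an exon (23.1%), 915 in an intron (28.2%) and 577 between genes (17.8%). These categories take up 34.7%, 24.7%, 25.6% and 15.0% of autosomal sequence. Introns and intergenic sequence were therefore above, and upstream windows below, their share of the chromosomes, by a few percentage points each. With protein-coding genes alone the upstream share was 21.3% against 23.3% of sequence the intron share 31.4% against 28.3% and the intergenic share 23.5% against 23.5%, so that the intergenic excess was not seen with coding genes. Wide shared peaks had 39.0% of centres in upstream windows and 24.5% in introns. Starts of non-coding genes inside narrow shared peaks comprised 212 of 5244 annotated ncRNAs (4.04%) and 86 of 15201 piRNAs (0.566%). For tRNAs they were 9 of 336 (2.68%), for miRNAs 5 of 187 (2.67%) and for snoRNAs 5 of 313 (1.60%). The share of coding starts was 2.82%, and those of tRNAs and miRNAs were close to it. For snoRNAs, which guide the modification of ribosomal RNA, 183 starts (58.5%) were in wide shared peaks, against 39.5% of coding starts.

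Narrow shared peaks inside genes were in long and mostly expressed ones. The centre of 2107 of the 3249 (64.9%, interval 63.2 to 66.5%) was inside a protein-coding gene, and where genes were nested the longest was taken as host. The host had a median length of 7127 bp and in 63.9% of cases was longer than 5000 bp. Long genes cover more sequence, so the same was read at sites placed every 100 bp along the autosomes. Coding genes held 64.2% of these sites, and 60.5% of the sites outside wide XX peaks. At sites within coding genes the median host length was 4879 bp, and it was 5151 bp at those sites outside the wide XX peaks, which is the sequence left to narrow peaks. Hosts of wide shared peaks had 4901 bp and those of narrow peaks without XO partner 7115 bp. The length of the host was thus shared with narrow peaks that no called XO peak overlapped. Of these 1364 peaks, 386 lay less than 500 bp from an XO peak.

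In wild-type XX animals the host genes, each counted once for every peak centre in it, had a median of 16.7 RPKM and 88.4% were above 1 RPKM. Wide shared peaks gave 18 RPKM and 94.6%, narrow peaks without partner 13.1 RPKM and 85.2%, and sites outside wide peaks 7.44 RPKM and 69.7%. The centres were a median of 3024 bp downstream of the host's start and their median position was 0.504 of its length. For 730 narrow shared peaks (34.6%) the start of the host lay in a wide shared peak, against 32.4% for narrow peaks without partner, 19.3% for sites outside wide peaks and 43.0% for all sites. For 331 of the 2107 it lay in a narrow shared peak, against 15531 of 346160 sites in genes outside wide peaks. It lay in no peak of either list for 30.5%, against 41.3% for narrow peaks without partner and 65.4% for sites outside wide peaks. A peak that covers the start of its own host puts that start in a peak by construction. Peaks and sites are therefore not a like comparison here.

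**Figure D3:**
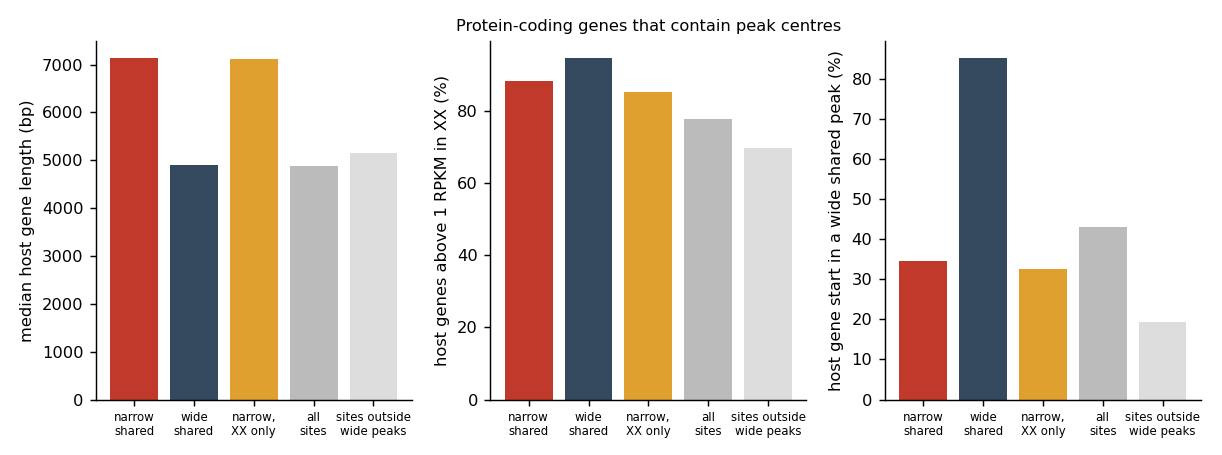
Bars show, for protein-coding genes that contain peak centres, the median length (bp), the share above 1 RPKM in wild-type XX animals (%) and the share whose start lies in a wide shared peak (%), for the 3 peak classes, for sites every 100 bp on autosomes and for those sites outside wide XX peaks. Narrow shared peaks sit in longer hosts (7127 bp) than wide shared peaks (4901 bp) or sites (4879 and 5151 bp), and 88.4% of the hosts pass 1 RPKM. Each host is counted once for every peak centre or site in it.

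The 2107 peaks were distributed over 1528 host genes, of which 1156 contained 1, 252 contained 2 and 120 contained 3 or more. The genes with the most were picked after their counts were seen, and all were long. afd-1 (chrI:2160038-2209644), the worm afadin of cell junctions, held 11 over 49607 bp and gave 42.8 RPKM in the group labelled mys-1(RNAi), 42.6 in XO vector, 41.7 in dpy-21 XX and 43.4 in wild-type XX animals. daf-2, the insulin receptor gene, held 9 over 46333 bp and gave 25, 29.3, 16.7 and 17.8 RPKM in these groups. Its mean was thus higher in both XO groups, by less than 2-fold. herc-1, a HERC-type ubiquitin ligase, held 8. Further genes with 5 or 6 included mca-3, a calcium pump of the plasma membrane, hmr-1, the classical cadherin, kin-1, the catalytic subunit of protein kinase A, and crh-1, the CREB homologue. Their starts were of different classes: those of daf-2, mca-3 and crh-1 were in wide shared peaks, those of herc-1 and hmr-1 in no peak, and those of afd-1 and kin-1 in a peak of the XO list only.

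Genes that started in a narrow shared peak had RNA levels between those of genes in wide shared peaks and genes in no peak. Of 474 with an RNA value, 331 had more than 1 RPKM in wild-type XX animals (69.8%, interval 65.6 to 73.8%). Among all autosomal coding genes with an RNA value the share was 61.8%. With a width limit of 1000 bp the share of genes in narrow shared peaks was 59.0% (102 of 173). The higher share than over all genes was thus not seen in the narrower peaks. For genes starting in wide shared peaks the share was 87.9%, for those in narrow peaks of the XX list only 60.1% (51.8 to 67.9%), for those in a peak of the XO list only 65.7% and for those in no peak 40.4%. The median level of the 474 genes was 7.97 RPKM in the group labelled mys-1(RNAi), 7.87 RPKM in XO vector, 5.69 RPKM in dpy-21 XX and 5.77 RPKM in wild-type XX animals. All autosomal coding genes had medians of 6.12, 5.77, 4.45 and 4.07 RPKM in these groups. Genes in wide shared peaks had medians of 19.2, 18.9, 16.2 and 16.4 RPKM and genes in no peak 0.737, 0.631, 0.388 and 0.313 RPKM in the same groups. The ranking of these 3 classes in wild-type XX animals was the same on each autosome: the median of narrow shared starts was between 3.43 RPKM on II and 7.23 RPKM on V, that of wide shared starts between 15.6 and 17.7 RPKM, and that of starts in no peak between 0.209 and 2.2 RPKM.

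**Figure D4:**
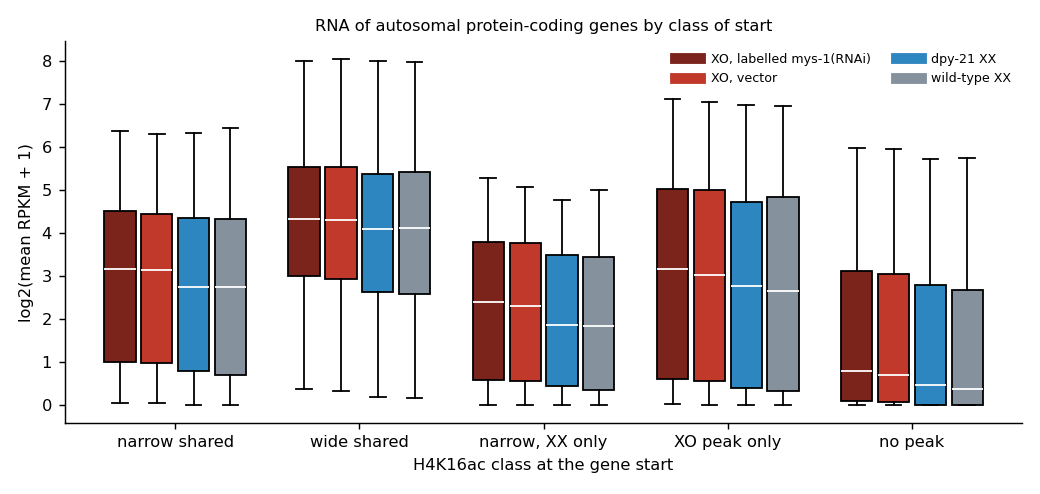
Boxes give log2(mean RPKM + 1) of autosomal protein-coding genes in the 4 RNA groups, by the H4K16ac class at the gene start; white lines are medians, boxes quartiles and whiskers the percentiles 5 and 95 over genes. In every group the 474 genes of narrow shared peaks lie between genes in wide shared peaks and genes in no peak, with medians of 7.97, 7.87, 5.69 and 5.77 RPKM.

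The most expressed gene with its start in a narrow shared peak was col-107, at 743 RPKM in the group labelled mys-1(RNAi), 652 in XO vector, 1294 in dpy-21 XX and 2038 RPKM in wild-type XX animals. Its peak at chrIV:1547904-1548813 was 742 bp wide in XO and 910 bp in XX animals. It was followed by spp-17, a saposin-like protein gene, with 549, 785, 436 and 750 RPKM. lec-10 gave 486, 428, 528 and 518 RPKM, from a peak of 306 bp. rpl-37 stood at 351, 375, 384 and 394 RPKM, and its peak of 974 bp had a common share of 90.6% with the XO partner.

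Among the other genes of the 20 most expressed, tmed-10 and tmed-4, which encode p24-family cargo receptors, had 219 and 163 RPKM in wild-type XX animals. The peak at the tmed-4 start was 1945 bp wide in XO and 1973 bp in XX animals, with a common share of 98.6%. vha-19, a subunit of the vacuolar proton pump, gave 252 RPKM in XO vector and 223 RPKM in wild-type XX animals. nuo-4, a subunit of respiratory complex I, gave 240 RPKM in XO vector and 193 RPKM in wild-type XX animals, and its XO partner spanned 16183 bp. tba-4, an alpha-tubulin, gave 113 RPKM in XO vector and 150 RPKM in wild-type XX animals. dpy-18, a prolyl hydroxylase that modifies collagen, was at 130 RPKM in XO vector and 124 RPKM in wild-type XX animals. In this group ttr-18, a transthyretin-related gene, stood apart by its low wild-type value, with 352, 378 and 355 RPKM in the 3 other groups against 125 RPKM in wild-type XX animals.

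Differences in RNA between groups were counted for genes whose mean over both groups was above 1 RPKM, as log2 of the ratio of (mean RPKM + 1), a scale that understates the change of low genes. Between XO vector and wild-type XX animals, 39 of 348 genes with a start in a narrow shared peak were 2-fold or more higher in XO (11.2%), where 12% of all 10966 autosomal coding genes were. Lower by 2-fold or more were 12 (3.45%), against 3.66% of all. The median difference was 0.17 for these genes and 0.18 for all, so both counts and median were close to the background. For the 1314 host genes of narrow shared peaks the shares were 7.15% higher and 3.04% lower. Genes starting in wide shared peaks had 6.26% and 1.25%.

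The genes with the largest positive log2 differences were T10G3.1, with 33.2 RPKM in XO vector and 3.45 RPKM in wild-type XX animals, and rrf-2, an RNA-dependent RNA polymerase gene, with 19.9 RPKM in XO and 1.96 RPKM in XX. slc-36.5, of an amino acid transporter family, had 11 RPKM in XO and 0.758 RPKM in XX, Y73B6A.3 had 44.9 and 7.22 RPKM, and clec-146, a C-type lectin gene, had 24.2 and 3.58 RPKM. In the other direction, R05G9R.1 had 1.12 RPKM in XO and 5.65 RPKM in XX animals (log2 difference -1.65) and col-107 had 652 and 2038 RPKM (-1.64). M03F8.1, srlf-15 and K04A8.20 completed the 5 lowest, with log2 differences of -1.42, -1.36 and -1.36.

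Between dpy-21 XX and wild-type XX animals, 14 of 339 genes were 2-fold or more higher (4.13%, against 4.42% of 10631 autosomal genes) and 4 were lower (1.18%, against 2.47%). The median difference was -0.03, with -0.02 for all. The 5 highest included lys-10, a lysozyme gene, with 11 RPKM in dpy-21 and 1.42 RPKM in wild-type animals, and ttr-18. The lowest was Y48G8AL.16, at 36.3 RPKM in dpy-21 and 155 RPKM in wild-type animals. Since this comparison and the one above use the same wild-type libraries, genes such as slc-36.5, srlf-15 and R05G9R.1 that appear in both are not independent in them.

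Between the XO group labelled mys-1(RNAi) and XO vector, 1 of 354 genes was 2-fold or more higher (0.282%, against 0.328% of 11267) and 1 was lower (0.282%, against 0.169%). The higher gene was pho-9, of the acid phosphatase family, with 33.8 RPKM in the group labelled mys-1(RNAi) and 12.4 RPKM in XO vector. The lower one was R02D5.24, listed at 0 in the group labelled mys-1(RNAi) and at 3.45 RPKM in XO vector. The median difference was 0.03 for these genes and for all.

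Gene families placed few starts in narrow shared peaks, where 2.82% of all 17242 autosomal coding starts were found. Wide shared peaks held 39.5% of all these starts, but nearly all of those of several housekeeping families. They held the starts of 75 of 76 autosomal cytosolic ribosomal protein genes, rpl-37 being the exception in a narrow shared peak, and of all 33 proteasome subunit genes, 29 of 30 translation factor genes, 63 of 70 mitochondrial ribosomal protein genes and 17 of 19 Mediator subunit genes. Besides rpl-37, the starts of these families in narrow shared peaks were those of mrpl-19 and mrps-35. For the 17 autosomal subunit genes of the vacuolar ATPase, 2 starts were in narrow shared peaks, those of vha-19 and vha-18, with 223 and 1.28 RPKM in wild-type XX animals, and 14 in wide ones.

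Over all autosomal coding genes, 50.3% of starts lay in no peak. Chemoreceptor genes (95%), C-type lectins (84.0%) and F-box A genes (78.8%) were above this share, nuclear hormone receptor genes (65.9%) and detoxification genes (66.1%) less so, and col- collagens (51.2%), histone genes (55.9%) and ceh- homeobox genes (57.8%) near it. Of 246 autosomal nuclear hormone receptor genes, which encode ligand-regulated transcription factors, 12 started in narrow shared peaks (4.88%), among them nhr-100 at 23.0 RPKM and nhr-4 at 11.2 RPKM in wild-type XX animals, while 51 started in wide shared peaks and 162 in none. Of 129 col- collagen genes of the cuticle, 8 did so (6.20%), and these ranged widely in level: col-107 stood at 2038 RPKM, col-117 at 33.9 RPKM and col-60 at 0.143 RPKM. F-box A genes had 6 of 156, detoxification genes of the cyp, ugt and gst families 5 of 171, C-type lectins 2 of 237, histone genes 2 of 68, ceh- homeobox genes 2 of 45, hedgehog- and patched-related genes 1 of 71 and chemoreceptor genes 8 of 1191, of which 1131 lay in no peak. No start of 106 neuropeptide and insulin-like genes was in a narrow shared peak, and 76 were in no peak. With so few members per family these shares were not compared further.

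Among all autosomal coding genes, 8.86% were hosts of a narrow shared peak, a share that depends on gene length. A list named for synaptic vesicles and axonal transport held 16 autosomal genes, of which 6 were hosts. None of the 16 started in a narrow shared peak and 9 started in a wide shared one. The hosts comprised unc-104, the kinesin that moves synaptic vesicles, with 3 narrow shared peaks over 15639 bp, and ric-4, the SNAP-25 homologue, with 2. The others were snt-1, rab-3, egl-3 and unc-41 with 1 each. The list is broader than its name, since egl-3 is not a gene of synaptic vesicles or axonal transport. Of 22 sarcomere genes 5 were hosts, including mlc-3, a myosin light chain, at 1676 RPKM and lev-11, tropomyosin, at 1157 RPKM in wild-type XX animals. Nuclear hormone receptor genes, with 25 hosts of 246 (10.2%), were near the share of all genes. Of 29 germ line genes of P granules and meiosis, 24 started in wide shared peaks and 4 were hosts, among them glp-1, a Notch receptor, and rec-8, a meiotic cohesin subunit that also started in a narrow shared peak. Of 15 genes listed as putative Tip60 complex members or other H4K16 enzymes none started in a narrow shared peak and 12 started in wide shared peaks. The sole host was mys-2, a MYST acetyltransferase gene, and the study saw no reduced H4K16ac in its mutants. Of the tissue marker lists for intestine, muscle, neurons, hypodermis, germ line and pharynx, 2, 3 or 4 autosomal genes each, none had a start in a narrow shared peak. With 2.82% of all autosomal coding starts in such peaks, lists this short cannot show an absence. Hosts were 2 of 4 neuron markers, rab-3 and unc-104, and 1 of 4 germ line markers, glp-1, and the other marker lists held none.

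The base composition of narrow shared peaks was close to that of sequence 2000 bp away and to the autosomal mean, and lower than that of their near surroundings. The 300 bp around their centres had 35.3% G and C on average (SD 5.86 over 3249 regions), against 35.4% in the windows 2000 bp to either side and 35.5% over the autosomes. The difference of centre and flank averaged -0.17 percentage points with a 95% interval over regions of -0.42 to 0.08. In 200 bp windows, G and C made up 35.3% at the centre, against 36.1% at 600 bp to the left and 36.1% at 600 bp to the right. Wide shared peaks had 36.3% at the centre and 36.3% at both of these distances. Positions 600 bp from the centre lie inside every wide shared peak but outside most narrow ones, so the comparison is not a like one. In the 300 bp windows, wide shared peaks had 36.4% at the centre and narrow peaks without XO partner 33.8%, with differences to their flanks of 0.54 and -0.72 points. At the starts of autosomal genes in no peak the difference was 0.40 points.

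Short sequence motifs were searched on both strands in the same 300 bp windows. A TATA box (TATAAA) was in 29.9% of narrow shared centres (interval 28.4 to 31.5%), 29.4% of all autosomal windows of this length and 39.8% of windows directly upstream of coding starts. The GATA letters (TGATAA) were in 27.2%, 25.1% and 30.8% of these windows and an E-box (CACGTG) in 5.57%, 5.11% and 5.89%. Only the GA repeat (GAGAGAGA) and the GATA letters had an interval that lay above the share of all autosomal windows, the GA repeat with 3.02% (2.48 to 3.66%) against 2.0%, and wide shared centres gave 3.21%. Narrow peaks without XO partner gave 27.5% for the GATA letters (25.2 to 29.9%) and 1.98% for the GA repeat. T-blocks (TTTTTTTT) were in 28.8% of narrow shared centres, with an interval of 27.3 to 30.4% that lay below the 31.2% of all windows. The splice acceptor letters (TTTTCAG) were in 28.2% against 29.7%. T-blocks and splice acceptor letters can overlap by their T letters. The CRE (TGACGTCA) was in 2.19% against 1.81%. The core of the MEX motif of X recruitment sites (CGCAGGGAG) was in 1 of 3249 windows, against 73 of 275177.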

How the data were processed

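H4K16ac ChIP-seq and polyA RNA-seq of L3 worms were used. The authors aligned reads to WS235 with Bowtie 1.1.1 (ChIP, at most 2 mismatches and 4 locations) and called broad peaks with MACS2 2.1.0 on all replicates and inputs of a strain together. The deposited peak lists hold positions without scores. The authors computed the deposited RPKM values with TopHat2 2.0.13 and Cufflinks 2.2.1 from unstranded libraries, so overlapping genes share reads, and deposited group means. A deposited table of the authors' DESeq2 comparisons (fold changes and p-values) was not used.

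Peaks were joined to Ensembl release 115 genes on WBcel235, the same assembly as WS235, with Python 3.11.15, pandas 2.3.3 and scipy 1.17.1. Printed coordinates are 1-based. In the RNA values 45835 of 46170 gene IDs matched. Shares have 95% Wilson intervals. A pseudocount of 1, a mean above 1 RPKM and a 2-fold limit were used for RNA. Classification was checked on simulated intervals. The genes named were the 20 most expressed with a start in a member peak, the 5 largest differences each way, and up to 4 examples a list (6 for the synaptic list). The regions, lists and rules were chosen with earlier results of these data known. Sequence on 1 chromosome is not printed. The alternatives tried are given in the closing section.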

Additional observations from a re-analysis of the deposited data

How the results depend on the processing

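Peak lists were pooled and unscored and RNA values were group means, so leaving out a library or using a stricter peak threshold could not be run. No paired analysis was possible because the peak lists and RNA columns carry no replicate numbers. The number of narrow shared peaks was 2111 with a limit of 1000 bp and 1522 where XX peaks within 1000 bp were merged (chosen after seeing the data), against 3249 as reported. Merging within 500 bp changed nothing, since no gap was that small. The share with an XO partner under 2000 bp was 55.8% where XO peaks had to cover at least 50% of the XX peak, against 62.5%. The share holding a coding start was 20.1% within 200 bp, 28.0% within 500 bp, 20.6% with genes of all biotypes, 8.10% with a limit of 1000 bp and 15.1% in regions with 1 XO peak that met no other XX peak (chosen after seeing the data), against 13.9%. The upstream share of centres was 17.1% with 500 bp, 49.6% with 2 kb and 21.3% with coding genes alone, against 31%. The expressed share was 84.8% above 0.1 RPKM, 52.3% above 5 RPKM and 59.0% with a limit of 1000 bp, against 69.8%. With a 1.5-fold limit 86 genes were higher and 21 lower in XO than in XX animals, against 39 and 12. In all, 16 of 30 alternatives moved a value beyond its counting interval or by over 1.5 times. The direction of the centre against flank difference in GC content kept its sign in each setting run. What these files can limit is precision by number of regions; read depth is not in them.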
